A study of Mus musculus with 7 samples.

Results

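Genes of the cell division cycle were examined in subcutaneous pancreatic ductal adenocarcinoma (PDA) tumors in which the cancer cells carried either a scrambled guide RNA or a guide RNA against *Krt19*. The set holds 40 genes that were chosen by name from the 38026 genes of the deposited table: 14 S phase replication genes, 6 regulators of G1 and the G1/S transition and 20 G2/M and mitotic genes. All 40 were found and all 40 passed the filter on low values. *Kif11* is listed under 2 gene identifiers with the same values and was counted once.

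The 7 libraries came from tumors of the mouse PDA line 1242, which was established from a genetically engineered mouse in which Cre driven by the pancreatic Pdx1 promoter switches on a heterozygous lox-stop-lox allele of Trp53 (R172H), so that the cancer cells of both groups share this allele and the rest of the line's background. In both groups the cells had been transduced with a lentivirus encoding SpCas9 and a guide RNA and selected with puromycin. The groups were sgScramble (n = 4, libraries 1 to 4) and sgKrt19 (n = 3, libraries 5, 6 and 8). Tumors grew in the flank of otherwise untreated C57BL/6 mice, which keep their own immune system and stroma, and were taken 2 weeks after inoculation; the mice were bought at 6 weeks of age and housed for 2 weeks before use. The study used both polyclonal lines and single-cell clones and 3 guides against *Krt19*, and which of these gave the sequenced tumors is not stated. The labels do not say whether the tumors of a group came from separate mice or cultures, and p-values therefore measure the spread between these samples only.

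During S phase, the MCM2-7 helicase opens DNA at origins licensed by CDC6, CDC45 and the GINS complex travel with it, PCNA clamps the polymerases to the template, and ribonucleotide reductase and thymidylate synthase supply deoxynucleotides. Cyclins D and E with their kinases release E2F factors from RB proteins and so switch on S phase genes, whereas mitotic genes such as cyclin B, the Aurora and Polo kinases, kinesins and centromere proteins are switched on later. Their promoters often hold CHR elements, which the MuvB core binds, as part of the repressive DREAM complex in resting cells and with activators such as B-MYB later, and CCAAT boxes, which NF-Y binds. In tumor tissue the transcripts of these genes are known as markers of cycling cells.

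Promoter sequences, which the rule for choosing the genes did not use, were searched for the letters known from each phase. RefSeq promoter windows on GRCm38.p6, each covering 250 bases before and 50 bases after a gene start, were found for 31 of the 40 genes. E2F letters (TTCCCGC or TTCGCGC or TTGGCGC on either strand) were present in 8.07% of all 32851 windows, in 7 of 13 windows of S phase genes, in 3 of 16 windows of mitotic genes and in 0 of 4 windows of G1 genes. CHR letters (TTTGAA on either strand) were present in 17.9% of all windows, in 2 of 13 S phase windows and in 12 of 16 mitotic windows. The box CCAAT, on either strand, was present in 37.4% of all windows, in 11 of 13 S phase windows and in 15 of 16 mitotic windows; it can share bases with an E2F match on the opposite strand. Printed here are the windows of the 5 genes with a window whose expression passed the test, so that the letters of both phases can be compared: E2F letters in *Mcm5* (chr8:75109259-75109558, plus strand), 2 E2F and 2 CHR matches in *Cdk1* (chr10:69352863-69353162, minus strand), a CHR match in *Cdc20* (chr4:118437294-118437593, minus strand) and in *Ube2c* (chr2:164769679-164769978, plus strand), and neither in *Pcna* (chr2:132253131-132253430, minus strand). Capitals mark E2F, CHR and CCAAT letters, and each sequence runs 5′ to 3′ on the strand of its gene.
Mcm5: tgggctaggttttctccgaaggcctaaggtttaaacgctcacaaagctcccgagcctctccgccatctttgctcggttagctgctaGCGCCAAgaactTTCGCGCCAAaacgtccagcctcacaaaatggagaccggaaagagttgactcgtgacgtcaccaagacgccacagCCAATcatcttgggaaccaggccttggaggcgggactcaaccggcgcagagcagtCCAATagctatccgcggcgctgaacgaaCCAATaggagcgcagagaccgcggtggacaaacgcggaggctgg
Pcna: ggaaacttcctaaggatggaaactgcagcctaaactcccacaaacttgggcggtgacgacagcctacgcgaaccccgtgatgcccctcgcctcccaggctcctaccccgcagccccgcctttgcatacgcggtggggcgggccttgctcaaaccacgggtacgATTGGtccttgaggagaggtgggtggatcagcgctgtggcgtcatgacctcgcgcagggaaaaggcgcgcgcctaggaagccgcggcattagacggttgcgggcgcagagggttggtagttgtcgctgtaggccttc
Cdk1: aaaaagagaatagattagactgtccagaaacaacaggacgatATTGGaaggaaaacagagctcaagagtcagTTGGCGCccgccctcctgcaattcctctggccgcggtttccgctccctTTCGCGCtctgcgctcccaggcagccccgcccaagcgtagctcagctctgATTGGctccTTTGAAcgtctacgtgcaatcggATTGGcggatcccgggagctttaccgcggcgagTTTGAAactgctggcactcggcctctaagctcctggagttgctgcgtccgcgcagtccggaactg
Cdc20: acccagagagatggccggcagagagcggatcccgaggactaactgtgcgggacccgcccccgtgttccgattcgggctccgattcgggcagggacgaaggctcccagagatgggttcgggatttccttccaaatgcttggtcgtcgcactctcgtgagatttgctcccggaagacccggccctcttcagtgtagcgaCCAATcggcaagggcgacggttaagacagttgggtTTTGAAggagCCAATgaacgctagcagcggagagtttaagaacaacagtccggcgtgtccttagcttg
Ube2c: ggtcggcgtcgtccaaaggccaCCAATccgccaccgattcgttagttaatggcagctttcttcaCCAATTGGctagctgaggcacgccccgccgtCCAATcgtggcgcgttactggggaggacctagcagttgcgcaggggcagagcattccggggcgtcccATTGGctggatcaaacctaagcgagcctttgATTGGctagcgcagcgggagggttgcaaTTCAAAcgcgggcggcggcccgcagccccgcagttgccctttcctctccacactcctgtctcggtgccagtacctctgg
The CHR match lies 29 to 24 bases before the start in *Ube2c* and 18 to 13 bases before it in *Cdc20*. These letters describe the windows and are not evidence that a factor was bound. The windows of *Top2a* and *Kif11* hold CHR letters too, and neither gene was called.

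Values are normalized read counts, that is reads of a gene divided by the size factor of its library, and errors after ± are SDs. A fold change is the difference of the group means of log2(value + 1), with its SE from limma, and a gene was called when its limma p-value, adjusted by the Benjamini-Hochberg method over all 21322 genes tested, was under 0.05. The libraries held 40781199 to 44972100 reads, and 3 reads, the level treated as undetected, corresponded to a value of 2.74 to 3.47; every one of the 40 genes lay far above it. *Krt19* itself measured 25574, 21179, 27618 and 17841 in sgScramble and 1606, 1960 and 2470 in sgKrt19, a log2 fold change of −3.52 ± 0.18 (SE, with adjusted p = 1.74e-05 in limma). Across all genes 34.0% were called, 17.9% higher and 16.0% lower in sgKrt19. Because the tumors are bulk tissue, fewer cells of a type and less RNA per cell cannot be told apart.

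Of the 40 cell cycle genes, 7 rose in sgKrt19 tumors and 0 fell. The share that rose, 17.5%, was close to the 17.9% of all genes. At an unadjusted limma p under 0.05, 13 were higher and 0 lower, against 23.9% and 22.0% of all genes. The tools edgeR and DESeq2 on the recovered reads each called the same 7 genes and 0 lower, against 17.9% and 19.3% of all genes called higher by these tools. The genes that rose were *Mcm5* and *Pcna* of S phase, the cyclin gene *Ccne2* of the G1/S transition, and *Ube2c*, *Cdk1*, *Ccna2* and *Cdc20* of G2/M and mitosis. The median log2 fold change was 0.21 over the 40 genes and 0.01 over all genes tested. In 8 of the 40 genes every sgKrt19 library was above every sgScramble library, against 21.7% of all genes tested.

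**Figure D1:**
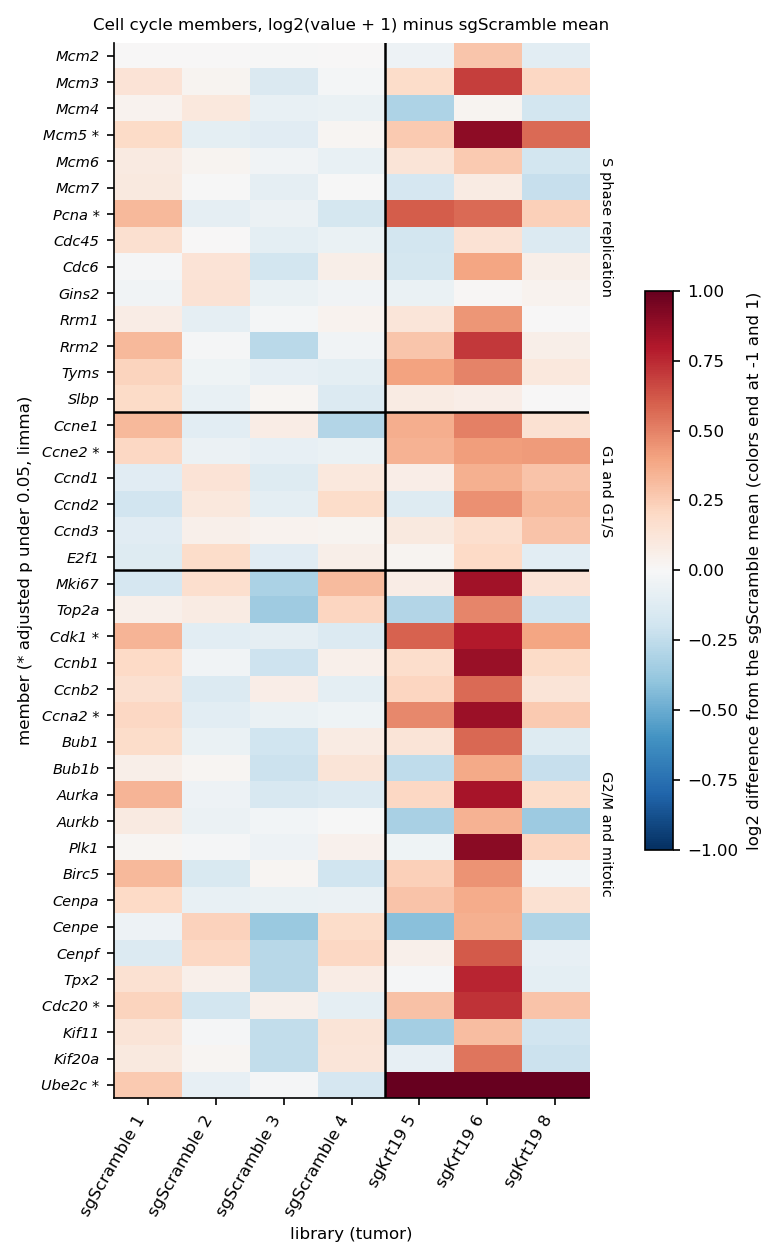
Heat map of the 40 genes (vertical axis, ordered by phase) in the 7 libraries (horizontal axis); color gives log2(value + 1) minus the mean of the 4 sgScramble libraries, and an asterisk marks the 7 genes with a limma adjusted p under 0.05. All 20 mitotic genes are highest in sgKrt19 library 6, and *Ube2c* is high in all 3 sgKrt19 libraries, where it lies beyond the end of the color scale.

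The S phase genes did not move as a block. *Mcm5* and *Pcna* rose, a share of 14.3% against 17.9% of all genes. The other 12 of the 14 were not called, and the median log2 fold change of the class was 0.08. *Mcm5*, a subunit of the helicase ring, measured 2222, 1824, 1804 and 1973 in sgScramble and 2334, 3626 and 2880 in sgKrt19. Every sgKrt19 library was above every sgScramble library, although library 5 exceeded the highest control only narrowly. The log2 fold change was 0.57 ± 0.15 (SE, with adjusted p = 0.0163 in limma), or 1.49-fold. *Pcna*, the sliding clamp, measured 6060, 4551, 4657 and 4281 in sgScramble and 7380, 7187 and 5710 in sgKrt19. Here the groups overlapped, since sgScramble library 1 was above sgKrt19 library 8. The log2 fold change was 0.47 ± 0.15 (SE, with adjusted p = 0.0317 in limma). Of the windows of read length in *Pcna* exons, 13.6% also occur in its pseudogene *Pcna-ps2*, so that some reads may have been split between or counted at both.

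The 6 subunits of the MCM2-7 ring, which work as a heterohexamer, took different positions in this comparison. *Mcm3* measured 3491, 3247, 2871 and 3133 in sgScramble and 3611, 5129 and 3677 in sgKrt19; the groups did not overlap, but the log2 fold change of 0.36 ± 0.14 was not called (adjusted p = 0.069 in limma). *Mcm2* was nearly constant among sgScramble tumors, at 3155 to 3165, and spanned 2940 to 3832 in sgKrt19. The fold changes of *Mcm2* and *Mcm6* were 0.04 and 0.07 on the log2 scale, with 95% intervals of −0.21 to 0.29 and −0.20 to 0.34. *Mcm7* and *Mcm4* lay on the other side of 0, at −0.11 (95% interval −0.35 to 0.14) and −0.15 (−0.40 to 0.09). *Mcm4* measured 2660, 2797, 2477 and 2487 in sgScramble and 2097, 2657 and 2290 in sgKrt19, so that only library 6 reached the control range. The log2 ratio of *Mcm5* to *Mcm4* within a library, which does not depend on how libraries are scaled, was −0.62 to −0.26 in the 4 sgScramble tumors and 0.15, 0.45 and 0.33 in sgKrt19 libraries 5, 6 and 8; this pair was picked after its values were seen and was not tested.

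Among the other S phase genes, those that make deoxynucleotides had positive estimates that were not called. *Rrm2*, the regulated subunit of ribonucleotide reductase, had a log2 fold change of 0.35 ± 0.17 (adjusted p = 0.147 in limma), its partner *Rrm1* 0.19 ± 0.12, and *Tyms*, thymidylate synthase, 0.33 ± 0.13 (adjusted p = 0.0737 in limma). *Rrm2* spanned 2225 to 3361 in sgScramble and 2798 to 4380 in sgKrt19, so the groups overlapped broadly. *Cdc6*, *Cdc45*, *Gins2* and the histone mRNA binding gene *Slbp* had estimates between −0.06 and 0.09. For *Gins2*, 67.3% of the exon bases overlap exons of *Gse1* on the opposite strand, and whether counting used strand is not stated, so its value is uncertain. *Cdc6* was the lowest S phase gene per exon length, at 70.4 normalized read counts per kb in sgScramble, and *Pcna* the highest at 2036 per kb.

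The 6 G1 genes all had estimates above 0, from 0.04 to 0.40 on the log2 scale with a median of 0.23. Of the 6, 1 was called higher, a share of 16.7% against 17.9% of all genes. With libraries scaled to total reads 3 of the 6 estimates were below 0 and none was called in limma. *Ccne2*, a cyclin E that activates CDK2 at the G1/S transition, measured 868, 722, 708 and 716 in sgScramble and 958, 1004 and 1011 in sgKrt19. The groups did not overlap, and the sgKrt19 tumors differed little among themselves. Its log2 fold change was 0.40 ± 0.11 (SE, with adjusted p = 0.0227 in limma). Exons of *Ints8* overlap 17.4% of the exon bases of *Ccne2* on the opposite strand, and the shared bases are 8.15% of those of *Ints8*. With 8.15% of the *Ints8* reads taken off *Ccne2*, its log2 fold change was 0.49. *Ccne1*, the other cyclin E gene, measured 135 to 208 in sgScramble and 185 to 236 in sgKrt19, a log2 fold change of 0.34 ± 0.18 that was not called (adjusted p = 0.174 in limma).

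The D cyclins, which couple growth signals to CDK4 and CDK6, were the most abundant G1 genes. Per kb of exon, sgScramble means were 2480 normalized read counts for *Ccnd1*, 1074 for *Ccnd2* and 267 for *Ccnd3*. Log2 fold changes were 0.24 ± 0.13, 0.22 ± 0.16 and 0.18 ± 0.10, and none of the 3 passed the test in limma, edgeR or DESeq2, nor at an unadjusted limma p under 0.05. Exons of *LTO1* overlap 23.4% of the exon bases of *Ccnd1* on the opposite strand. *LTO1* measured 6021 to 6866 in sgScramble and 8152 to 8905 in sgKrt19, and its reads were not taken off *Ccnd1*. *Ccnd3* measured 2169, 2427, 2404 and 2384 in sgScramble and 2505, 2634 and 2856 in sgKrt19, so that the groups separated although the gene was not called (adjusted p = 0.174 in limma). *E2f1*, the transcription factor of S phase genes, measured 543 to 673 in sgScramble and 550 to 683 in sgKrt19, and its log2 fold change of 0.04 had a 95% interval of −0.25 to 0.33.

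Of the 20 mitotic genes 4 rose, a share of 20% against 17.9% of all genes, and 0 fell, against 16.0%. The other 16 were not called, and the median log2 fold change of the class was 0.24. *Ube2c*, the ubiquitin-conjugating enzyme of the anaphase-promoting complex, stood apart: it measured 3908, 3079, 3227 and 2908 in sgScramble and 7295, 7818 and 6616 in sgKrt19. The lowest sgKrt19 tumor was above the highest sgScramble tumor by a wide margin. The log2 fold change was 1.15 ± 0.12 (SE, with adjusted p = 0.000185 in limma), or 2.22-fold. *Cdk1*, the kinase that drives entry into mitosis, measured 4158, 3054, 3094 and 2993 in sgScramble and 4946, 5705 and 4326 in sgKrt19. These groups did not overlap, with sgScramble library 1 well above the other 3 controls, and the log2 fold change was 0.59 ± 0.15 (SE, with adjusted p = 0.0124 in limma).

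*Ccna2*, the cyclin A of S phase and G2, measured 5908, 4758, 4896 and 4977 in sgScramble and 7126, 9244 and 6142 in sgKrt19. The groups did not overlap and library 6 was the highest; the log2 fold change was 0.53 ± 0.15 (SE, with adjusted p = 0.0206 in limma). *Cdc20*, an activator of the anaphase-promoting complex, measured 2430, 1840, 2166 and 1962 in sgScramble and 2555, 3445 and 2540 in sgKrt19. Its groups did not overlap either, but libraries 5 and 8 were only slightly above the highest control, and the log2 fold change was 0.43 ± 0.14 (SE, with adjusted p = 0.0403 in limma). Reads of the opposite-strand partners *Exosc9* and *Elovl1* changed these estimates by little: with the overlapping share taken off they were 0.53 and 0.43.

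**Figure D2:**
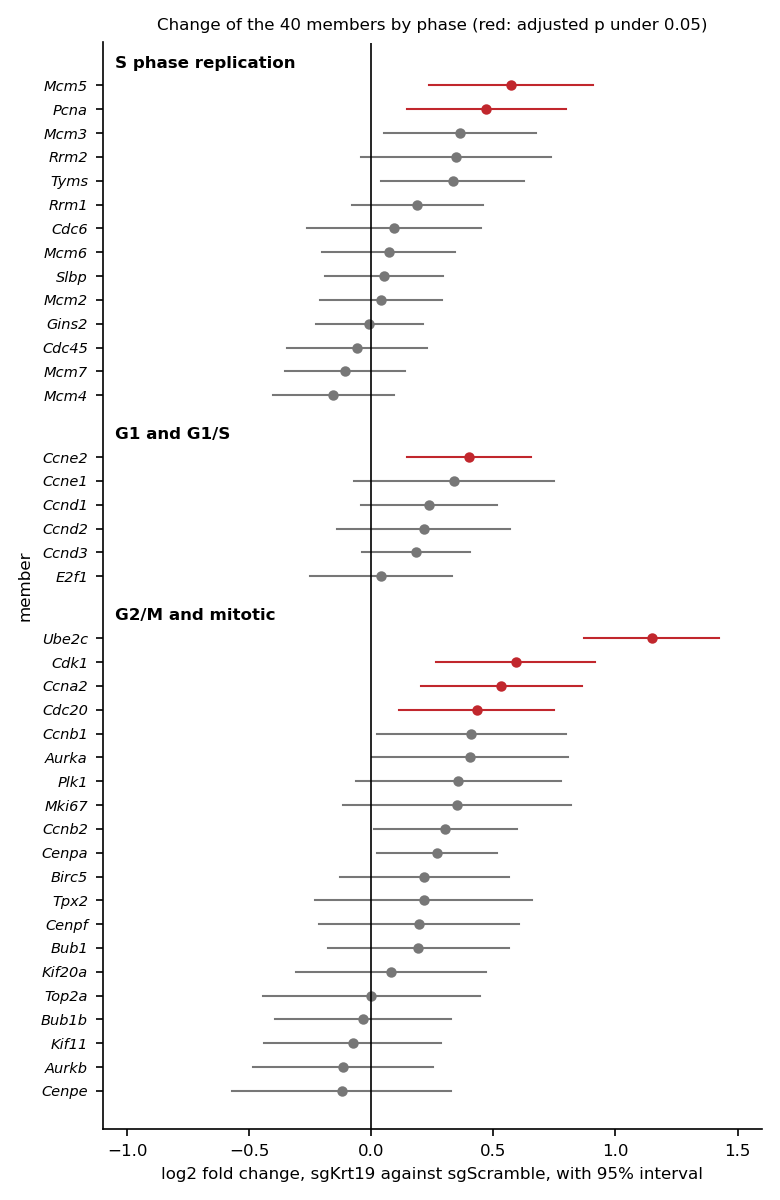
Log2 fold change of sgKrt19 against sgScramble (horizontal axis, points) with its 95% interval from limma (lines) for the 40 genes, ordered by size within each phase; red marks the 7 genes with a limma adjusted p under 0.05. *Ube2c* lies apart at 1.15, and the other 39 genes lie between −0.15 and 0.59.

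The remaining mitotic genes include those most used as readouts of proliferation. *Mki67*, which encodes the Ki-67 antigen, measured 3766, 4765, 3394 and 5286 in sgScramble and 4455, 7601 and 4665 in sgKrt19. Libraries 5 and 8 lay within the control range and library 6 far above it, and the log2 fold change of 0.35 ± 0.21 was not called (adjusted p = 0.213 in limma). *Top2a*, the topoisomerase that untangles chromosomes, measured 7480, 7653, 5655 and 8384 in sgScramble and 5898, 10136 and 6293 in sgKrt19, with a log2 fold change of 0.00 and a 95% interval of −0.44 to 0.44. Libraries 5 and 8 thus lay within the control range and library 6 was the highest of all. *Ccnb1* (0.41 ± 0.17) and *Aurka* (0.41 ± 0.18), a B cyclin and an Aurora kinase, were not called either, with limma adjusted p of 0.0932 and 0.105; the lowest adjusted p among the uncalled mitotic genes was that of *Cenpa*, 0.0830 in limma. *Plk1*, the Polo-like kinase, spanned only 1302 to 1395 in sgScramble but 1310 to 2521 in sgKrt19.

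Estimates below 0 were found for 4 mitotic genes, and none was called in limma, edgeR or DESeq2: *Cenpe*, a centromere-associated kinesin (−0.12, 95% interval −0.57 to 0.33), *Aurkb*, the kinase of the chromosomal passenger complex (−0.11, −0.48 to 0.25), the spindle kinesin *Kif11* (−0.08, −0.44 to 0.29) and the checkpoint kinase *Bub1b* (−0.04, −0.40 to 0.33). In each of them sgKrt19 libraries 5 and 8 were below the sgScramble mean and library 6 was the highest of the 7. *Aurkb*, for instance, measured 1276, 1150, 1177 and 1197 in sgScramble and 960, 1523 and 930 in sgKrt19. *Ccnb2*, *Birc5*, *Cenpa*, *Cenpf*, *Bub1*, *Tpx2* and *Kif20a* lay between 0.08 and 0.30 and were not called; 29.3% of the exon bases of *Kif20a* overlap *Cdc23* on the opposite strand.

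The value of *Ube2c* has to be read with that of a muscle gene. On chromosome 2 (GRCm38, GENCODE M21) the longest annotated form of *Ube2c* (164769898 to 164778822, plus strand) shares 592 exon bases, between 164777161 and 164778822, with *Tnnc2* on the minus strand, the gene of fast skeletal muscle troponin C. They are 22.8% of the exon bases of *Ube2c* and 74.0% of those of *Tnnc2*. *Tnnc2* measured 6.50, 5.93, 158.9 and 4.64 in sgScramble and 2451, 1320 and 1689 in sgKrt19, so its reads moved with the group. When the overlapping share of *Tnnc2* was taken off in each library, the log2 fold change of *Ube2c* was 0.86 (adjusted p = 0.00126 in limma). With all *Tnnc2* reads taken off, *Ube2c* measured 3901, 3073, 3068 and 2904 in sgScramble and 4844, 6498 and 4927 in sgKrt19, still without overlap, and the log2 fold change was 0.74 (adjusted p = 0.00384 in limma). Both corrections were added after the data had been seen, and both take the *Tnnc2* value as the measure of shared reads. How shared reads were counted is not stated, so neither correction is known to be an upper limit.

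**Figure D3:**
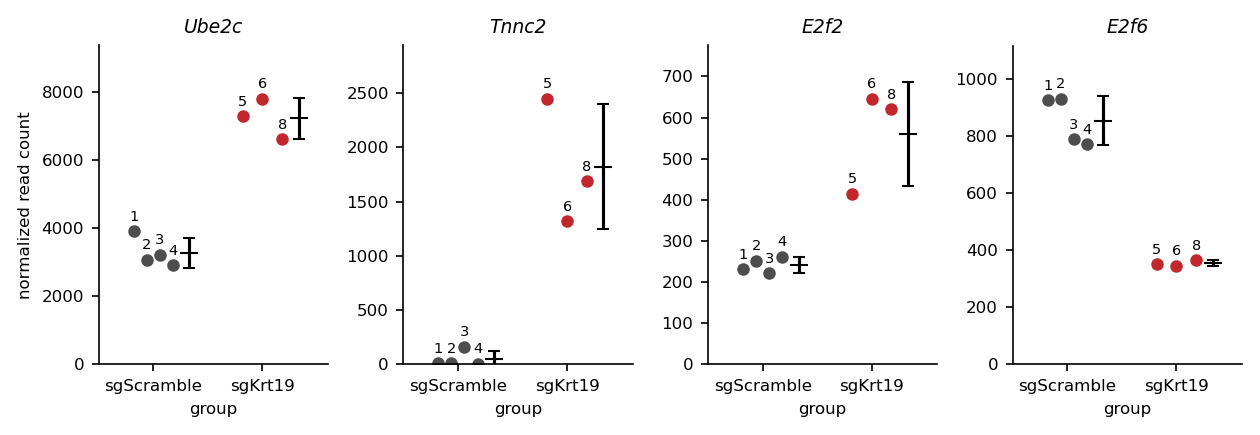
Normalized read counts (vertical axes, from 0) of *Ube2c*, its opposite-strand neighbor *Tnnc2*, and the E2F genes *E2f2* and *E2f6*; points are libraries with their numbers, and the bars beside them give the mean and SD of each group (n = 4 and n = 3). *Ube2c*, *Tnnc2* and *E2f2* are higher in every sgKrt19 tumor, and *E2f6* is lower in every one, at 344 to 364 against 771 to 930.

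To set the phases against each other, the mean of log2(value + 1) over the genes of a phase was taken in each library. Relative to the sgScramble mean, the mitotic score was 0.11, 0.64 and 0.06 in sgKrt19 libraries 5, 6 and 8, and sgScramble libraries ranged from −0.15 to 0.13. Library 6 alone was thus outside the control range. The S phase score showed the same order with smaller steps, 0.08, 0.36 and 0.03, against −0.09 to 0.13 in sgScramble. In the G1 score the groups did not overlap: 0.13, 0.35 and 0.23 in sgKrt19 against −0.05 to 0.05 in sgScramble. This separation was lost when libraries were scaled to total reads, where the G1 score was −0.22, 0.20 and 0.072 against −0.063 to 0.071.

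The S phase score minus the mitotic score was −0.21 ± 0.06 in sgScramble and −0.33 ± 0.15 in sgKrt19 (mean ± SD, n = 4 and n = 3). The difference of −0.11 between the groups was close to the pooled SD of 0.10, and the groups overlapped. Libraries 5 and 8 lay within the control range, at −0.24 each, and library 6 was at −0.49. Without library 6 the difference was −0.03. With the median over genes in place of the mean the sign turned, to 0.09, so the sign of the difference was not stable. The mitotic score held *Ube2c* with *Tnnc2* reads left in, and what these reads add to the differences was not tested. A score over chosen genes was given no p-value.

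**Figure D4:**
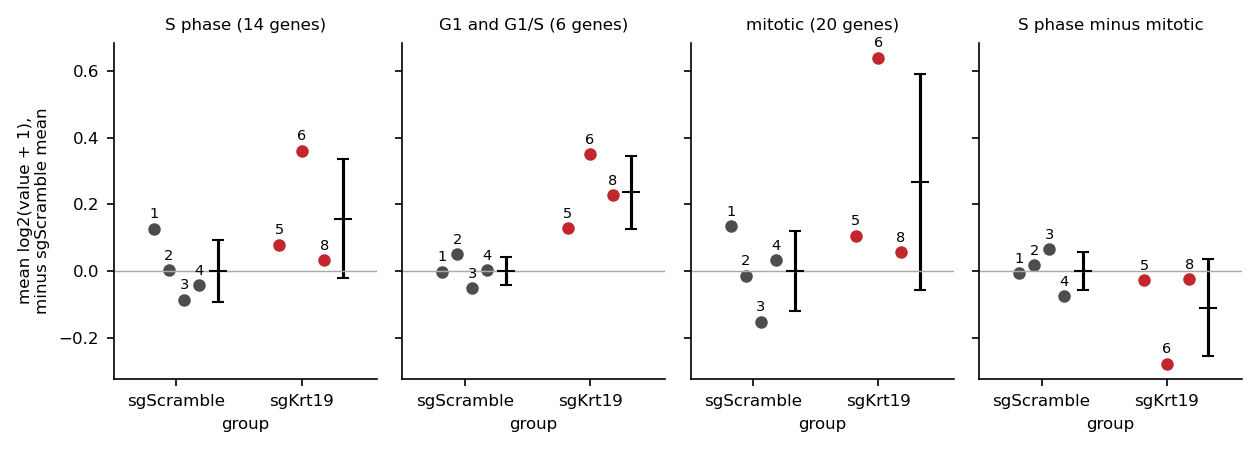
Mean log2(value + 1) of the genes of each phase, and the S phase minus mitotic score, as a difference from the sgScramble mean (vertical axis); points are libraries with their numbers, and bars give the group mean and SD (n = 4 and n = 3). sgKrt19 library 6 is highest in all 3 phase scores and lowest in S phase minus mitotic, and libraries 5 and 8 lie within the control range except in G1 and G1/S.

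sgKrt19 library 6 stood highest for most of the genes. All 20 mitotic genes and 32 of the 40 genes were highest in it, whereas 11.5% of all genes tested were. Its mitotic genes exceeded the mean of libraries 5 and 8 by a median of 0.62 on the log2 scale (range 0.15 to 0.82), its S phase genes by 0.29 and its G1 genes by 0.21, against −0.01 for all genes. Without library 6, 2 of the 40 genes were called, *Cdk1* and *Ube2c*, the median over the 40 fell to 0.09, and no S phase or G1 gene passed the test in limma. The scaling of the libraries mattered as well. When each library was scaled to its total reads alone, *Ube2c* was the only gene of the 40 called; that scaling moved the median of all genes to −0.21, and the median of the 40 genes was then near 0, with 19 estimates above 0 and 21 below. In that scaling 37.1% of all genes were called, 10.2% higher and 26.9% lower. Other settings called 6 or 7 of the 40 higher: 7 with TMM scaling (17.2% of all genes), with pseudocounts of 0.5 and 10 (17.9% and 18.1%) and with a filter of 50 (20.2%), and 6 with no filter (10.1%). Each library mattered to the count. Without sgScramble libraries 1, 2, 3 and 4 in turn 10, 3, 4 and 4 of the 40 rose, against 19.4%, 12.5%, 16.8% and 13.7% of all genes. Without sgKrt19 libraries 5, 6 and 8 it was 7, 2 and 7, against 11.8%, 15.0% and 12.9%. *Cdk1* and *Ube2c* were called in all 7 of these fits. *Mcm5* lost its call in 1 of them, *Ccna2* in 2, *Cdc20* in 4, and *Pcna* and *Ccne2* in 5 each.

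Differences within a phase do not depend on scaling. When each gene was expressed relative to the mean of the other genes of its class in the same library, the groups separated for 6 of the 14 S phase genes: *Mcm5*, *Pcna* and *Mcm3* were higher in every sgKrt19 library, and *Mcm4*, *Mcm7* and *Cdc45* lower. Measured against the same S phase mean, 10.3% of all genes were higher without overlap and 23.9% lower. *Mcm7* lay at 1.04 to 1.12 in sgScramble and 0.77 to 0.80 in sgKrt19 on the log2 scale, and in sgKrt19 it was the tightest of the 6 S phase genes. Of its windows of read length, 12.9% also occur in other genes, among them *Gm5487* and the opposite-strand neighbor *Ap4m1*. *Ap4m1* measured 1781 to 2180 in sgScramble and 1346 to 1475 in sgKrt19. Among the 20 mitotic genes, *Ube2c*, *Ccna2* and *Ccnb1* were relatively higher in every sgKrt19 library, and *Aurkb*, *Cenpe*, *Kif11*, *Bub1b* and *Kif20a* relatively lower. Against the mitotic mean, 5.94% of all genes separated upward and 26.0% downward. In *Ccnb1*, 18.7% of the windows of read length also occur in other genes, among them *Ccnb1-ps*. *Ube2c* differed by 0.93, and by 0.52 with all *Tnnc2* reads taken off. *Aurkb* lay at −1.14 to −0.96 in sgScramble and at −1.55, −1.41 and −1.54 in sgKrt19, so that library 6 no longer stood out. No gene of the 6 in G1 separated in this way, against 9.14% of all genes upward and 34.3% downward. These comparisons were added after the values had been seen and were not tested.

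Other genes of the same pathways were taken from lists written from general knowledge. Of 48 other replication genes 8 rose and 0 fell in limma (13 and 0 at an unadjusted p under 0.05), a share of 16.7% against 17.9% of all genes, with a median log2 fold change of 0.17; scaled to total reads, 1 rose and 1 fell, where 10.2% and 26.9% of all genes did, and the median was −0.05. The largest changes were in *Asf1b*, a histone chaperone of the replication fork (0.69 ± 0.18, adjusted p = 0.0150 in limma), *Dut*, which removes dUTP (0.65 ± 0.14, adjusted p = 0.00693 in limma), and *Gmnn*, whose product geminin blocks relicensing (0.62 ± 0.19, adjusted p = 0.0312 in limma), the last losing its call in 4 of 7 fits without a library. *Dut* measured 1918, 1463, 1569 and 1322 in sgScramble and 2586, 2608 and 2137 in sgKrt19, high in all 3 edited tumors without overlap. Of 56 other mitotic genes 9 rose (16.1%, against 17.9% of all genes) and 1 fell (against 16.0%), with a median of 0.26. Scaled to total reads, 5 rose and 1 fell, where 10.2% and 26.9% of all genes did. Among the sgKrt19 tumors, 52 of the 56 were highest in library 6, against 31.2% of all genes. The mitotic kinase gene *Melk* (0.87 ± 0.17, adjusted p = 0.00421 in limma), the condensin subunit *Ncaph* (0.71 ± 0.14, adjusted p = 0.00347 in limma) and the kinase *Pbk* (0.70 ± 0.18, adjusted p = 0.0142 in limma) changed most, and *Psrc1*, a spindle protein gene, fell by 0.52 (adjusted p = 0.0433 in limma), a call lost in 6 of 7 fits without a library and in edgeR. *Melk* measured 1505, 1206, 1171 and 1329 in sgScramble and 2190, 3171 and 1904 in sgKrt19.

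The larger changes upstream of S phase were in E2F genes outside the 40. Of 24 genes of CDKs and RB/E2F regulators 4 rose (16.7%) and 1 fell, against 17.9% and 16.0% of all genes, but scaled to total reads 1 rose and 5 fell, against 10.2% and 26.9%. *E2f2*, an activating E2F, measured 231, 252, 221 and 262 in sgScramble and 415, 646 and 621 in sgKrt19, a log2 fold change of 1.19 ± 0.17 (SE, with adjusted p = 0.000823 in limma). *E2f6*, a repressive E2F that lacks the RB-binding part, measured 923, 930, 787 and 771 in sgScramble and 350, 344 and 364 in sgKrt19, a log2 fold change of −1.27 ± 0.12 (SE, with adjusted p = 9.31e-05 in limma). Both genes separated the groups completely, in opposite directions, and the 3 sgKrt19 tumors lay close together in *E2f6*. No exon of another gene overlaps either of them in GENCODE M21. Their log2 ratio within a library was −1.99 to −1.56 in sgScramble and 0.24 to 0.91 in sgKrt19. *Mybl2*, a partner of MuvB at mitotic genes (0.73 ± 0.20, adjusted p = 0.0193 in limma), and the phosphatase *Cdc25a*, an activator of CDK2 (0.42 ± 0.15, adjusted p = 0.0487 in limma), also rose, but *Cdc25a* lost its call in 6 of 7 fits without a library and in 3 of 8 other settings. *Rb1*, the retinoblastoma gene and the remaining riser of the 4, was at 0.42 ± 0.10 (adjusted p = 0.0128 in limma). It was named after its value was seen, to complete the count. Exons of *Lpar6* and *Rcbtb2* overlap 14.9% of the exon bases of *Rb1* on the opposite strand. In *Mybl2*, 17.05% of the windows of read length also occur in other genes, among them *Gm3320*. *E2f3* was at −0.32 ± 0.11 and just missed the threshold (adjusted p = 0.0504 in limma).

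Genes of CDK inhibitors changed as well. Of 8 CDK inhibitor genes, 3 rose and 0 fell (4 and 0 at an unadjusted limma p under 0.05), against 17.9% and 16.0% of all genes called. Scaled to total reads, however, 1 rose and 3, *Cdkn2a*, *Cdkn2b* and *Cdkn1b*, fell, where 10.2% and 26.9% of all genes did. *Cdkn1a*, which encodes p21, measured 891, 606, 649 and 641 in sgScramble and 1495, 1139 and 924 in sgKrt19. Every edited tumor was above every control, and the log2 fold change was 0.76 ± 0.18 (SE, with adjusted p = 0.0119 in limma). *Cdkn2d*, an inhibitor of CDK4 and CDK6, and *Cdkn3*, a phosphatase of CDK2, changed by 0.58 ± 0.16 (adjusted p = 0.0226 in limma) and 0.46 ± 0.16 (adjusted p = 0.0484 in limma), and lost their calls in 4 and 5 of 7 fits without a library. Of 9 histone genes tested 3 rose and 0 fell, against 17.9% and 16.0% of all genes. Scaled to total reads, 2 of 8 rose and 0 fell, against 10.2% and 26.9%. The 3 included the variants *H2afx* (0.88 ± 0.14, adjusted p = 0.00112 in limma) and *H2afz* (0.61 ± 0.17, adjusted p = 0.0185 in limma). Of the windows of read length in *H2afz*, 28.6% also occur in other genes, and it lost its call in 2 of 7 fits without a library. *Hist1h2bb* (0.68 ± 0.19, adjusted p = 0.0191 in limma) shares reads with close copies and is uncertain, and *Hist1h3c* did not pass the filter.

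**Figure D5:**
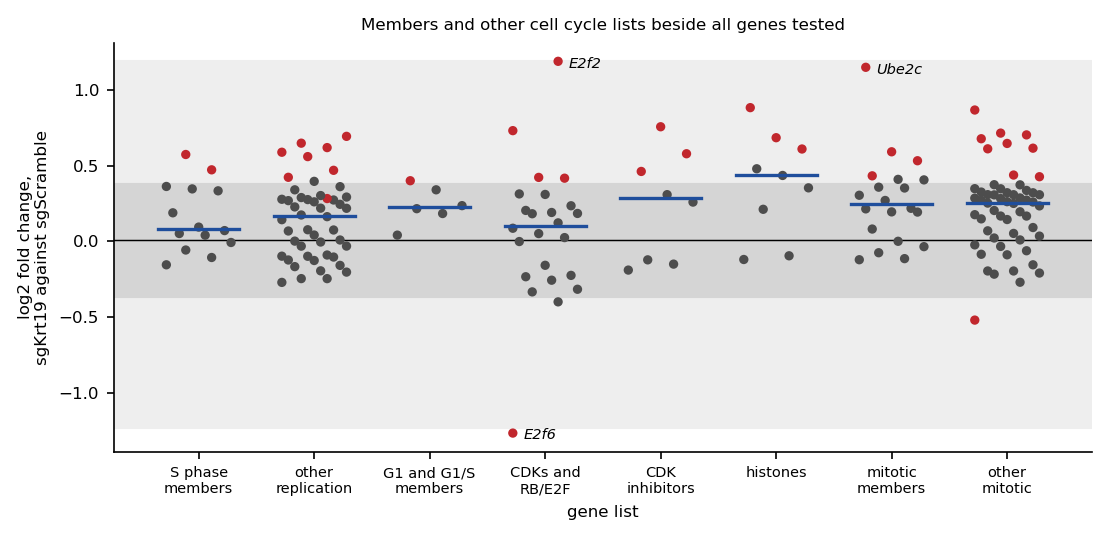
Log2 fold change of sgKrt19 against sgScramble (vertical axis) for the genes of each phase and of the other cell cycle lists (horizontal axis); points are genes, red where the limma adjusted p was under 0.05, blue lines are list medians, and the bands hold the middle 50% and 90% of all genes tested (−0.37 to 0.38 and −1.23 to 1.19). Most points lie inside the inner band, and *E2f2*, *E2f6* and *Ube2c* lie near or beyond the edges of the outer one.

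Marker genes of cell types differed between the groups as well, where 17.9% of all genes tested rose and 16.0% fell. Whether a marker sum reflects the number of cells or the RNA per cell was not tested. Summed over 8 epithelial marker genes, of which 5 rose and 0 fell, normalized read counts were 132670 to 182454 in sgScramble and 274727 to 281540 in sgKrt19. Estimates were below 0 for 2 of the 8, the lowest at −1.23 on the log2 scale. The epithelial list holds keratin genes, the family of the edited *Krt19*. All 8 T cell genes rose (sums 647 to 1239 and 3701 to 6814), as did all 6 pan-leukocyte genes (9965 to 13859 and 17742 to 24294) and all 5 neutrophil genes tested (365 to 543 and 1057 to 1160). All 7 skeletal muscle genes rose, with sums of 27.9 to 1965 in sgScramble and 17368 to 24531 in sgKrt19. Of 8 macrophage genes 1 rose and 1 fell, 3 of 5 endothelial genes rose, 1 of 3 skin keratinocyte genes tested fell, and of 7 fibroblast genes and the 1 B cell gene tested 0 were called in limma (also 0 at an unadjusted p under 0.05). None of the markers was at 0 in all libraries. In library 6 the T cell sum was 6814, beside 6565 in library 5 and 3701 in library 8, and the muscle sum was the lowest of the 3 sgKrt19 tumors. Cycling cells can be cancer cells, T cells or stroma, and the part of these cell types in the values of the 40 genes was not tested.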

How the data were processed

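RNA from 7 subcutaneous tumors had been sequenced by the authors as single reads of 76 bases. Methods name a stranded total RNA kit with 12 PCR cycles, whereas the labels give polyA RNA. The deposited values are a normalized signal: read totals of genes, which the authors scaled with 1 size factor per library. The labels name the build mm10; aligner, counting program and use of strand are not given in the sources used here. Whole reads were recovered within 0.1 read for 100% of values, and 37167 of 38026 gene identifiers (97.74%) matched GENCODE M21, which supplied exons and overlaps.

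The 21322 genes that reached 10 in 3 or more libraries were tested with limma 3.58.1 (lmFit, eBayes with trend) in R 4.3.3 on log2(value + 1), a scale that understates changes of low genes, with the group as the only term and Benjamini-Hochberg adjustment over all of them. edgeR 4.0.16 (quasi-likelihood) and DESeq2 1.42.0 were run on the recovered reads as alternatives, with other scalings, pseudocounts, filters and left-out libraries. Fits were tested on simulated data. The level treated as undetected, 3 reads, covers counting error only.

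The genes and lists were chosen with earlier results of these data known. All 40 genes are given; of each other list, up to 3 called genes each way with the largest change are named. One further engineered allele of the line is not reported here.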

Additional observations from a re-analysis of the deposited data

Results flagged for a closer look

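In 8 of 62 items examined (12.9%), 1 of the 4 sgScramble libraries stood farther from the other 3 than Dixon's 95% limit for 4 values allows, where chance gives about 1 in 20. The value given is the gap to the nearest library divided by the range of the group. In 6 of the 8, sgScramble library 1 was the library apart. It was high in *Cdk1* (4158 against 2993 to 3094, gap over range 0.913), *Cenpa* (2546 against 2110 to 2127, 0.961), *Ccne2* (868 against 708 to 722, 0.910), *Tyms* (1194 against 958 to 996, 0.839) and *Cdkn1a* (891 against 606 to 649, 0.847), and low in *Ccnd3* (2169 against 2384 to 2427, 0.836). Without sgScramble library 1, *Cdk1* and *Ccne2* kept their calls (*Ccne2* lost its call without each of 5 other libraries), and *Tyms*, *Cenpa* and *Aurka* gained one. sgScramble library 2 was high in *Gins2* (2470 against 2138 to 2187, 0.854), a gene that shares most of its exon bases with *Gse1*. In *Mcm2* library 3 was apart (3155 against 3164 to 3165, 0.961), but these 4 values lay within 1% of each other. The sgKrt19 group, with 3 libraries, is too small for this rule, and sgKrt19 library 6 was therefore not examined by it.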

How the results depend on the processing

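With each library scaled to its total reads, 0 S phase, 0 G1 and 1 mitotic gene were called, against 2, 1 and 4; the other 7 settings that kept all libraries (TMM, pseudocounts of 0.5 and 10, no filter, a filter of 50, edgeR and DESeq2) left each count within 1.5 times. Leaving out libraries in turn gave 0 to 3 S phase, 0 to 1 G1 and 2 to 6 mitotic genes. Without sgKrt19 6 the counts were 0, 0 and 2; without sgScramble 2 they were 1, 0 and 2; without sgScramble 3 or 4, 1, 0 and 3; without sgKrt19 5, 1, 1 and 5; without sgKrt19 8, 3, 0 and 4. The S phase minus mitotic difference ranged from −0.15 to −0.026 without a library, was −0.062 with the other replication and mitotic genes, and was 0.090 with medians. *Krt19* was called in every setting (−3.74 to −3.37), and 4861 to 7971 genes were called in all. Of 860 results for 57 named genes, 750 kept their direction and side of the threshold, 71 lost the call, 5 gained it and 34 changed sign, 0 of these in a gene called here. Scaling to total reads turned 13 log2 fold changes, to *Mcm2* −0.18, *Mcm6* −0.15, *Cdc6* −0.12, *Rrm1* −0.028, *Slbp* −0.16, *Ccnd2* −0.00090, *Ccnd3* −0.033, *E2f1* −0.18, *Top2a* −0.22, *Bub1* −0.023, *Cenpf* −0.022, *Tpx2* −0.0021, *Kif20a* −0.14; TMM scaling turned *Top2a* to −0.014. Leaving out a library turned others, which then ranged as follows: *Mcm2* −0.078 to 0.11, *Mcm6* −0.025 to 0.20, *Cdc45* −0.16 to 0.0042, *Cdc6* −0.057 to 0.23, *Gins2* −0.030 to 0.039, *E2f1* −0.040 to 0.12, *Top2a* −0.24 to 0.15, *Bub1b* −0.24 to 0.074, *Aurkb* −0.34 to 0.012, *Cenpe* −0.36 to 0.028, *Cenpf* −0.015 to 0.33, *Tpx2* −0.058 to 0.37, *Kif11* −0.27 to 0.057, *Kif20a* −0.15 to 0.23. *Ube2c* kept its call in all settings, from 0.74 to 1.24 on the log2 scale. The cause of these shifts was not tested. No paired analysis was possible because the groups share no replicate number. Depth was not limiting for these genes; 3 and 4 tumors limit the precision, with a median SE of 0.15 on the log2 scale over the 40 genes.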

Other observations

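Kinases that D and E cyclins activate, and the inhibitors encoded at the Ink4 locus, were measured well above the level treated as undetected in every tumor and were not called; scaled to total reads, *Cdkn2a* and *Cdkn2b* were called lower in sgKrt19. *Cdk4*, the partner of the D cyclins, measured 17150 ± 1640 in sgScramble and 20190 ± 2194 in sgKrt19 (SD, n = 4 and n = 3), a log2 fold change of 0.23 with a 95% interval of −0.056 to 0.52. *Cdk6* and *Cdk2*, the partners of D and E cyclins, had estimates of −0.26 (−0.66 to 0.15) and −0.16 (−0.40 to 0.088). *Cdkn2a* measured 7589 ± 547 in sgScramble and 6931 ± 1554 in sgKrt19, and its neighbor *Cdkn2b* 2437 ± 87.6 and 2256 ± 362. This locus is often deleted in pancreatic cancer, and its transcripts were measured in all 7 tumors. *Foxm1*, a transcription factor of G2/M genes, was at −0.22 (−0.65 to 0.20) whereas *Mybl2* rose.

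Because *E2f6* fell in every sgKrt19 tumor, 4 germline genes that E2F6 is known to keep silent in somatic cells were looked up after its values had been seen. *Stag3* measured 6.50 to 15.8 in sgScramble and 3.47 to 12.6 in sgKrt19. *Smc1b*, *Slc25a31* and *Tuba3a* were at or near the level of 3 reads in all 7 libraries, so no fold change is given for them. *Tdrkh*, a Tudor domain gene active in the germline that was looked up at the same time, was well expressed and fell: it measured 1048 to 1178 in sgScramble and 463 to 533 in sgKrt19 (log2 fold change −1.14 ± 0.11, limma adjusted p = 9.5e-05).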
